A study of Mus musculus with 4 samples.

Results

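The genes described here are the Wnt ligands, their Frizzled and co-receptors, their secreted antagonists and the intracellular effectors of the pathway, measured in mouse embryonic stem (ES) cells. The rule that defines the members uses gene symbols and no signal. They were all probe sets whose only symbol begins with Wnt, Fzd, Dkk or Sfrp and a digit, or is Ror1, Ror2, Lrp5, Lrp6, Axin1, Axin2, Ctnnb1, Lef1, Tcf7l1, Tcf7l2 or Sp5. Tcf7, also named by that rule, was not analysed here. This gave 99 probe sets of 49 genes, out of 45101 probe sets on the array. The symbol rule also took in Fzd10os, a neighbouring transcript named for the strand opposite Fzd10. Its annotated span ends before that of Fzd10 begins. RNA came from Suz12KO ES cells, which lack Suz12, a core subunit of the histone H3 lysine 27 methyltransferase complex PRC2, and from wild-type (WT) ES cells. There were 2 Affymetrix arrays per genotype. Each genotype is represented by a pool of RNA from 3 clones, in equal parts, by the labels' account. Neither strain nor culture conditions are given in the labels, nor is it stated if both arrays of a genotype received separately prepared RNA. The p-values therefore measure the spread between arrays, which may be technical.

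Wnt proteins are secreted, lipid-modified ligands that bind Frizzled receptors. Together with the co-receptors Lrp5 and Lrp6 they stop the Axin-containing destruction complex from degrading beta-catenin, encoded by Ctnnb1, which then joins Tcf/Lef factors at target genes. Dkk proteins block Lrp5 and Lrp6, and Sfrp proteins bind Wnts outside the cell. Ror1 and Ror2 are receptors for Wnt signals that bypass beta-catenin. In mouse ES cells, Wnt signalling is known to favour self-renewal, and Tcf7l1 is known as a repressor of pluripotency genes.

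Signal is the deposited probe set intensity on a linear scale, and fold changes are Suz12KO over WT on the scale log2(signal + 16), which understates changes of dim probe sets. Array medians were 202 and 191 in Suz12KO and 175 and 171 in WT. Precision is limited by having 2 arrays per genotype. Probe sets for bacterial spike RNA that read low on every array reached 195 and 174 in Suz12KO and 141 and 191 in WT, and signals at or under these levels were treated as within background. Suz12 itself was lower on the probe set with the smallest error, with signals of 274 and 301 in Suz12KO and 1024 and 1096 in WT (log2 fold change -1.83, SE 0.21, limma adjusted p = 0.0011). Which of its probe sets target the disrupted sequence is unknown here. The ES cell label was borne out by its markers, since all 8 listed ES cell genes were above background on every array.

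Of the 99 member probe sets, 73 had enough mean signal to be tested, 11 passed the test and 62 did not. Of the tested members, 4 rose in Suz12KO, for Tcf7l1, Sfrp1, Fzd5 and Fzd6, against 2.82% of all tested probe sets that did. Another 7, of 5 genes (Fzd2, Wnt4, Ror2, Sp5 and Tcf7l2), fell, against 3.99% of all. This was 15.1% of the members tested, against 6.81% of all 24461 tested probe sets (1667 calls, 690 higher and 977 lower) by limma with Benjamini-Hochberg adjusted p under 0.05. Higher calls made up 41.4% of all calls, and 24.3% after centring each array on its median, which left 2 higher and 9 lower members. Without WT replicate 1 the share called was 5.56% of members and 5.16% of all probe sets. It was 8.22% of members and 4.87% of all without WT replicate 2, and 9.21% and 5.85% without Suz12KO replicate 2. Without Suz12KO replicate 1 the share of members did not move closer to that of all probe sets. The members called include 3 probe sets of Fzd2, which are not independent of each other. With 1 probe set per gene, the brightest, 6 of 39 member genes passed (15.4%), against 9.97% of all genes. Both Suz12KO arrays lay above both WT arrays for 17 of the 73 tested members, and for 26.3% of all tested probe sets. Both lay below for 29 of the 73, and for 23.7% of all. The median log2 fold change was -0.14 over the tested members and 0.02 over all tested probe sets. All calls rest on letting the variance depend on signal level. With 1 variance prior for every level, limma called 0 probe sets, although 3673 in all and 23 members had an unadjusted p under 0.05, and the adjusted p of the 11 member calls lay between 0.165 and 0.252.

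**Figure D1:**
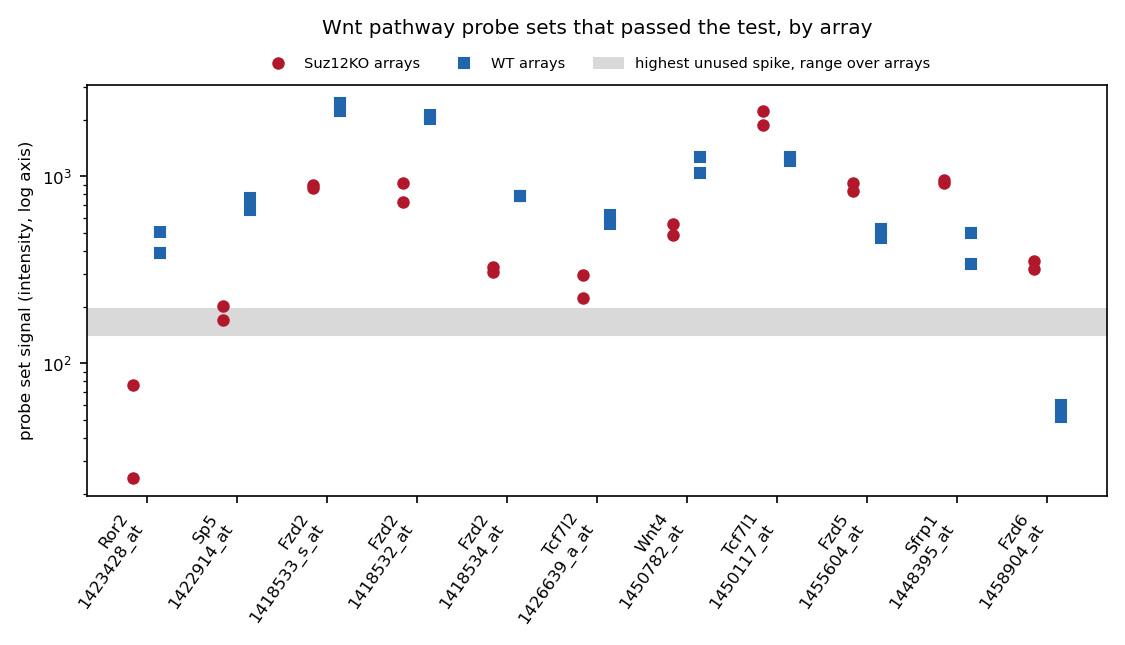
Signal (log axis) of the 11 Wnt pathway probe sets that passed the test, with Suz12KO arrays as circles left of the WT arrays as squares, ordered by log2 fold change. The genotypes did not overlap for any of the 11. Both Suz12KO arrays for Ror2 and both WT arrays for Fzd6 lie under the grey band, which spans the highest unused spike of each array (141 to 195).

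Fibroblast and ES cell markers differed between the genotypes. Of 17 tested fibroblast and feeder cell probe sets, 9 probe sets of 6 genes were lower and 0 higher in Suz12KO by limma. The summed signal over the 15 genes was 16005 and 16429 in Suz12KO and 66849 and 68341 in WT. Of these 15 genes, 8 and 7 were above background in Suz12KO and 11 and 8 in WT, so bright genes dominate the sums. Both Suz12KO arrays lay below both WT arrays for 11 of the 17 probe sets, against 23.7% of all tested. They lay above for 2, against 26.3% of all tested. Col1a1, a fibroblast collagen, read 435 and 448 in Suz12KO and 2859 and 2599 in WT. Pdgfrb, Dcn, Postn and Lum, also on that list, were within background on all 4 arrays. The ES cell markers went the other way, with 10 of 12 probe sets higher, 0 lower and a summed signal over 8 genes of 115190 and 118310 in Suz12KO and 64999 and 64715 in WT. A Col1a2 probe set lost its call with WT replicate 1 (adjusted p = 0.103) or WT replicate 2 (0.186) left out. Of the ES cell markers, Tdgf1 did so with Suz12KO replicate 2 left out (0.0697), and Zfp42 with Suz12KO replicate 1 (0.161), Suz12KO replicate 2 (0.0677) or WT replicate 1 (0.191) left out. The part of either marker group in the differences of Fzd2, Wnt4, Ror2, Sp5, Tcf7l2, Wls, Tcf7l1, Sfrp1 and Fzd5 was not tested. The other marker lists had few calls among few probe sets, so their shares compare only coarsely with the 6.81% over all probe sets. Among primitive endoderm markers 1 of 12 probe sets (8.33%) rose, for Gata4, which was within background in WT and at least 2.03-fold higher. Among trophoblast markers 1 of 5 (20.0%) rose (Tfap2c, 1.94), and among neural markers 1 of 7 (14.3%) fell (Nes, -1.41). Among mesoderm markers 0 of 7 passed the limma test and 2 had an unadjusted p under 0.05. In bulk RNA, fewer cells of a type and less RNA per cell cannot be told apart.

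Sp5 encodes a zinc finger transcription factor and is known as a direct target of beta-catenin and Tcf/Lef. Its promoter is shown because, of the 6 called genes with a promoter in the RefSeq table, it held the most Tcf/Lef core motifs. The windows run from 250 bases before to 50 after a transcription start (GRCm38.p6), 5′ to 3′ on the gene's strand, and capitals mark a core, read on either strand. The cores were searched on both strands. Of all promoter windows of this length, 5.14% held CTTTGAA. The core CTTTGAT was in 3.73% of them. A further 3.63% held CTTTGTA. The last, CTTTGTT, was in 5.85%. Windows of Wnt4, Ror2 and the internal start of Tcf7l2, all genes that fell, are given beside it for comparison.
Sp5, chr2:70474673-70474972, plus strand: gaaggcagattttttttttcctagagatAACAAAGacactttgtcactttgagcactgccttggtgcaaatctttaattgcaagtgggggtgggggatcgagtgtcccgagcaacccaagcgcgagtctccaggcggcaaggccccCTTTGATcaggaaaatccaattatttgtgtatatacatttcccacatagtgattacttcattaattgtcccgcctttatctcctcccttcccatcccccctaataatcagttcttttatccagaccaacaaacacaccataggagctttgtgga
Tcf7l2, internal start, chr19:55895071-55895370, plus strand: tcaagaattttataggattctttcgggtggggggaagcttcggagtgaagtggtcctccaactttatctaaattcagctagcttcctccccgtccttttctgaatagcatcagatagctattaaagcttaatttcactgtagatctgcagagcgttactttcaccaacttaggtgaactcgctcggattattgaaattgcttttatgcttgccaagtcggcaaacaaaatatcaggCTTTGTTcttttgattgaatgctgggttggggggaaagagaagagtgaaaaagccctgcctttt
Wnt4, chr4:137277385-137277684, plus strand: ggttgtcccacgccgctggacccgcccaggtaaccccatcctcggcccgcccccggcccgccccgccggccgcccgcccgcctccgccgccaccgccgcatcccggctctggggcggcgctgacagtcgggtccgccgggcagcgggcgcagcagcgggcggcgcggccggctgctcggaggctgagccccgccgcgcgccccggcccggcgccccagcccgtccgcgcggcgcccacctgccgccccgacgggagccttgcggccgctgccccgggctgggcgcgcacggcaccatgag
Ror2, chr13:53286075-53286374, minus strand: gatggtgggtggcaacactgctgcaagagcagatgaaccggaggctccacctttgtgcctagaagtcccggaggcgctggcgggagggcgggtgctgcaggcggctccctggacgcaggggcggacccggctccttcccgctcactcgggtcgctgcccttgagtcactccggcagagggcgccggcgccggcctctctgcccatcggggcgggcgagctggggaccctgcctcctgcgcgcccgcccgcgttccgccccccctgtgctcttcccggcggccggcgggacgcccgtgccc
The Sp5 window held CTTTGTT, on the opposite strand, from 222 bases before the start, and CTTTGAT from 104 bases before it. The Tcf7l2 internal window held 1 core. The upstream Tcf7l2 window, not printed, held 0 cores and 34 CpG dinucleotides, and the Wnt4 and Ror2 windows held 0 cores. Windows of Fzd5 and Tcf7l1, genes that rose, are not printed and also held 0 cores, with 38 and 34 CpG dinucleotides. At least 1 core was in 8 of 41 windows of the 33 member genes with a sequence (19.5%) and in 16.9% of all 32851 promoter windows. CpG dinucleotides numbered 6 in the Sp5 window, 7 in the Tcf7l2 internal window, 51 in the Wnt4 window and 32 in the Ror2 window. The median was 26 over member windows and 7 over all windows. A match describes the letters of the window and says nothing of binding.

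Among the ligands, Wnt4 fell in Suz12KO. Wnt4 is a ligand known for its roles in kidney and gonad development. Its brighter probe set read 483 and 557 in Suz12KO, against 1267 and 1043 in WT, a log2 fold change of -1.12 (SE 0.19, limma adjusted p = 0.0074). Both Suz12KO arrays lay below both WT arrays. The second Wnt4 probe set read 329 and 239 in Suz12KO and 480 and 594 in WT (-0.89, adjusted p = 0.125), also without overlap, but did not pass. The Wnt4 call was lost without WT replicate 1 (adjusted p = 0.0544).

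None of the other 17 tested ligand probe sets passed, and 14 of the 32 ligand probe sets were too dim to test. Wnt7b, a canonical ligand, read 1173 and 1098 in Suz12KO and 842 and 990 in WT on its brighter probe set (0.31, 95% interval -0.04 to 0.66). Its second probe set differed the other way, at 109 and 120 in Suz12KO, within background, and 242 and 206 in WT. Wnt6 read 659 and 290 in Suz12KO and 693 and 771 in WT (-0.72), so that 1 Suz12KO array stood far below the other. The second Wnt6 probe set differed the other way with overlap, at 370 and 320 in Suz12KO and 203 and 443 in WT (0.18). With Suz12KO replicate 1 left out the first gave -1.29 (adjusted p = 0.0232), a fit in which the lone Suz12KO array is assumed to vary like the WT arrays. Wnt3a, a ligand able to activate beta-catenin, read 304 and 398 in Suz12KO and 296 and 205 in WT (0.47, interval -0.35 to 1.29). Wnt11 read 445 and 310 in Suz12KO and 326 and 276 in WT (0.29), and the arrays overlapped.

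The remaining tested ligands had overlapping arrays or were within background in 1 genotype, apart from the brighter Wnt9a probe set. Wnt10a read 247 and 284 in Suz12KO and 377 and 284 in WT, and Wnt8a read 279 and 179 in Suz12KO and 273 and 295 in WT. The brightest Wnt7a probe set, at 601 and 265 in Suz12KO and 374 and 288 in WT, varied more between Suz12KO arrays than between genotypes. Wnt5b, a ligand of the beta-catenin-independent branch, read 99.1 and 66.3 in Suz12KO, within background, and 227 and 298 in WT. Its log2 difference of -1.51 did not pass (limma adjusted p = 0.173, interval -2.79 to -0.23). By mean signal alone its level was at least 1.38-fold lower. Wnt9a read 206 and 25.9 in Suz12KO and 228 and 379 in WT (-1.69, adjusted p = 0.281). With Suz12KO replicate 1 left out the adjusted p was 0.0474, but the lone Suz12KO array was within background and was assumed to vary like the WT arrays. Wnt5a had 1 tested probe set, at 207 and 73.0 in Suz12KO and 188 and 261 in WT, with overlap. Wnt1 differed by -0.20 and the tested Wnt9b probe sets by 0.63 and 0.71, all with overlap. No probe set of Wnt2, Wnt2b, Wnt3, Wnt8b, Wnt10b or Wnt16 was bright enough to test.

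Among the Frizzled receptors, Fzd2 fell on every one of its 3 probe sets. Fzd2 binds several Wnts, including Wnt5a. The brightest read 871 and 896 in Suz12KO, against 2460 and 2227 in WT (-1.39, SE 0.12, limma adjusted p = 2.65e-04), a 2.62-fold lower level. The second read 926 and 727 in Suz12KO and 2129 and 2024 in WT (-1.32, SE 0.15). The third read 307 and 329 in Suz12KO and 781 and 787 in WT (-1.26, SE 0.23). On all 3 the Suz12KO arrays lay far below the WT arrays, and the differences between arrays of a genotype were small beside the gap. The first 2 kept their calls without each array in turn, whereas the third lost its call with either WT array left out (adjusted p of 0.0596 for WT replicate 1 and 0.06525 for WT replicate 2).

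Fzd5, a receptor known from yolk sac and eye development, rose. It read 922 and 835 in Suz12KO and 520 and 470 in WT on the brighter probe set (0.81, SE 0.19, limma adjusted p = 0.0390). The dimmer one read 344 and 383 in Suz12KO and 162 and 102 in WT (1.39, adjusted p = 0.106), in the same direction and without overlap. The Fzd5 call was lost without any 1 of the 4 arrays (limma adjusted p between 0.0701 and 0.141), after centring (0.70, adjusted p = 0.0635), without a filter on dim probe sets (adjusted p = 0.0559) and after averaging both probe sets (1.10, adjusted p = 0.0562).

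Fzd6, a receptor known for planar polarity of hair and skin, was called higher on 1 of its 3 tested probe sets. That probe set read 319 and 351 in Suz12KO and 59.98 and 51.6 in WT (2.29, adjusted p = 0.0450), and the WT arrays were within background, so its level was at least 1.94-fold higher. The brightest Fzd6 probe set differed the other way, with 430 and 507 in Suz12KO and 603 and 605 in WT (-0.36, adjusted p = 0.422). The third overlapped, at 208 and 311 in Suz12KO and 116 and 222 in WT. The probe sets of Fzd6 thus disagreed in sign, and the call was lost without any 1 array (limma adjusted p between 0.0547 and 0.188), after centring (adjusted p = 0.0516), after quantile normalization (0.0528) and without a filter on dim probe sets (0.0904).

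The other Frizzled genes had no call. Fzd7, a receptor known to be prominent in pluripotent cells, read 919 and 1078 in Suz12KO and 1115 and 1537 in WT (-0.39, interval -0.80 to 0.02). Its second probe set was within background in WT and above it on only 1 Suz12KO array. By mean signal that probe set was at least 1.30-fold higher, without passing (adjusted p = 0.324). Its interval of -0.19 to 2.70 includes no change. Fzd3, a receptor of axon guidance, had a probe set at 38.0 and 94.9 in Suz12KO, within background, and 317 and 400 in WT. Its log2 difference was -2.27 (limma adjusted p = 0.0553), by mean signal at least 1.86-fold lower, without passing. Another Fzd3 probe set read 278 and 302 in Suz12KO and 213 and 180 in WT (0.53), so the gene's probe sets disagreed. Without Suz12KO replicate 2 the first Fzd3 probe set had an adjusted p of 0.0246, with the lone Suz12KO array within background. Fzd4, a receptor for Norrin as well as Wnts, read 382 and 400 in Suz12KO and 161 and 170 in WT (1.17, adjusted p = 0.106) on its brightest probe set, without overlap. A second Fzd4 probe set differed by -0.63, with overlapping arrays. Fzd8 read 33.3 and 140 in Suz12KO, within background, and 229 and 278 in WT. By mean signal it was at least 1.34-fold lower, without passing (limma adjusted p = 0.242, interval -3.20 to -0.03). Fzd1 read 434 and 411 in Suz12KO and 469 and 586 in WT (-0.30). Fzd10 read 712 and 578 in Suz12KO and 759 and 686 in WT (-0.17). Its neighbour Fzd10os read 349 and 233 in Suz12KO and 461 and 276 in WT (-0.31). Fzd9 overlapped, with a log2 difference of -0.02 and an interval of -1.51 to 1.46.

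**Figure D2:**
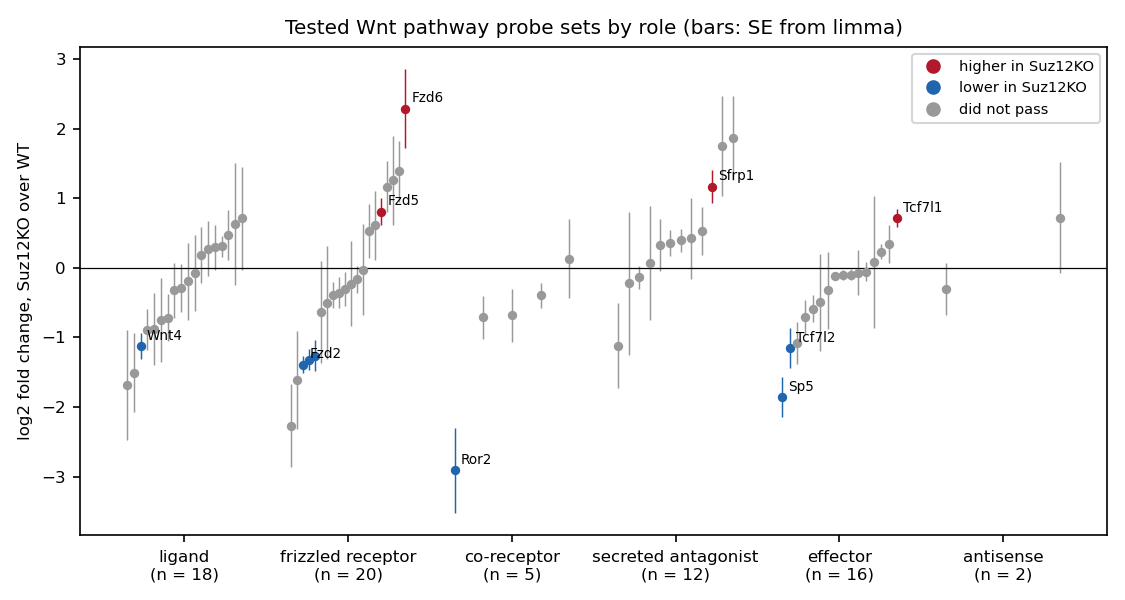
Log2 fold change (Suz12KO over WT) of the 73 tested Wnt pathway probe sets by role, as points with SE bars from limma, and each called gene named once. The share called was 5.56% of 18 ligand, 25.0% of 20 Frizzled, 20.0% of 5 co-receptor, 8.33% of 12 antagonist and 18.8% of 16 effector probe sets, against 6.81% of all. Fzd10os, labelled antisense here, had 0 of 2. Among 12 antagonist probe sets the median was 0.38, and among 20 Frizzled probe sets it was -0.26.

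Ror2, a receptor tyrosine kinase for Wnt5a, fell. Its signals were 76.2 and 24.5 in Suz12KO, both within background, against 501 and 391 in WT (-2.91, SE 0.61, limma adjusted p = 0.0222), and its level was at least 2.29-fold lower. The other Ror2 probe set was within background on all arrays. The call was lost with either WT array left out (adjusted p of 0.201 for WT replicate 1 and 0.1205 for WT replicate 2) and without a filter on dim probe sets (adjusted p = 0.0528). Ror1, its paralog, read 184 and 215 in Suz12KO and 292 and 370 in WT (-0.68, adjusted p = 0.364), without overlap. The second tested Ror1 probe set overlapped and differed by 0.13, at 118 and 219 in Suz12KO and 149 and 143 in WT. Lrp6, the co-receptor needed for beta-catenin signalling, had both probe sets below WT without overlap. They read 663 and 641 in Suz12KO against 807 and 923 in WT (-0.40), and 236 and 288 in Suz12KO against 444 and 430 in WT (-0.71, adjusted p = 0.235), and neither passed. Lrp5 was within background on all arrays.

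Among the secreted antagonists, Sfrp1 rose. Sfrp1 carries a Frizzled-like domain that binds Wnts. The called probe set read 925 and 960 in Suz12KO and 339 and 496 in WT (1.17, SE 0.23, limma adjusted p = 0.0166). All 5 Sfrp1 probe sets were above WT without overlap, with log2 differences of 0.40 to 1.87, but 4 of them did not pass. The brightest read 1033 and 1136 in Suz12KO and 891 and 755 in WT (0.40, interval 0.03 to 0.77). Leaving out Suz12KO replicate 1 (adjusted p = 0.0526), Suz12KO replicate 2 (0.06485) or WT replicate 1 (0.0502) ended the call. Another Sfrp1 probe set, at 526 and 447 in Suz12KO and 256 and 52.9 in WT (1.87), had an adjusted p of 0.0052 without WT replicate 1, with the lone WT array within background.

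The paralogs of Sfrp1 had no call. Sfrp2 read 881 and 802 in Suz12KO and 944 and 908 in WT (-0.14, interval -0.50 to 0.22), and Sfrp4 read 882 and 893 in Suz12KO and 608 and 776 in WT (0.36, interval -0.06 to 0.79). Sfrp5 varied more within than between genotypes, at 447 and 64.6 in Suz12KO and 262 and 106 in WT. Dkk3, a divergent member of the Dkk family, read 321 and 320 in Suz12KO and 322 and 195 in WT (0.33). Its other probe set, within background in Suz12KO, was by mean signal at least 1.26-fold lower, without passing (adjusted p = 0.356). The interval of that probe set, -2.49 to 0.25, includes no change. Dkk1, the classical Lrp6 blocker, stayed within background on every array, at 188 and 144 in Suz12KO and 123 and 115 in WT. Dkk2 read 82.9 and 77.5 in Suz12KO and 13.8 and 7.83 in WT, and Dkk4 read 24.5 and 18.2 in Suz12KO and 110 and 80.8 in WT. These Dkk2 and Dkk4 readings did not overlap, but all were within background and too dim to test.

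The effectors moved in both directions. Sp5, whose promoter is shown above, fell: it read 170 and 201 in Suz12KO, against 767 and 663 in WT (-1.86, SE 0.29, limma adjusted p = 0.0053), a 3.62-fold lower level. Only 1 of the Suz12KO arrays was above background, and the call was lost without WT replicate 1 (adjusted p = 0.0531). Tcf7l2, a Tcf factor that activates targets together with beta-catenin, also fell. Its called probe set read 295 and 223 in Suz12KO and 622 and 557 in WT (-1.15, SE 0.29, adjusted p = 0.0458). A second one read 220 and 296 in Suz12KO and 637 and 489 in WT (-1.08, adjusted p = 0.0722), and the remaining 2 differed by -0.32 and 0.08. Leaving out Suz12KO replicate 2 (adjusted p = 0.0928), WT replicate 1 (0.228) or WT replicate 2 (0.148) ended the Tcf7l2 call, as did averaging its probe sets (-0.62, adjusted p = 0.410) and testing without a filter on dim probe sets (adjusted p = 0.0797).

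Tcf7l1, the Tcf factor known as a repressor in ES cells, rose. One probe set read 1887 and 2227 in Suz12KO and 1265 and 1213 in WT (0.72, SE 0.13, limma adjusted p = 0.0101). The other read 1979 and 1819 in Suz12KO and 1625 and 1598 in WT (0.23, adjusted p = 0.298), also without overlap but with a smaller difference. The call was lost without Suz12KO replicate 2 (0.60, adjusted p = 0.0567).

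Ctnnb1 had no call on any of 3 probe sets, and their errors were small. The brightest read 16173 and 16596 in Suz12KO and 17756 and 17727 in WT (-0.11, interval -0.24 to 0.01), and the others differed by -0.10 and -0.10. Axin2, a negative feedback gene induced by beta-catenin, read 534 and 495 in Suz12KO and 766 and 797 in WT (-0.59, SE 0.19, adjusted p = 0.123), without overlap, but did not pass. The second Axin2 probe set, within background in Suz12KO, overlapped (-0.50). Axin1, the constitutive scaffold of the destruction complex, read 1092 and 1140 in Suz12KO and 1187 and 1133 in WT (-0.06, interval -0.37 to 0.26). Its dimmer probe set differed the other way, with overlap (0.35, interval -0.27 to 0.96). Lef1, both a Tcf family factor and a Wnt target, read 512 and 763 in Suz12KO and 1228 and 862 in WT (-0.71, adjusted p = 0.137), and its second probe set overlapped (-0.07).

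**Figure D3:**
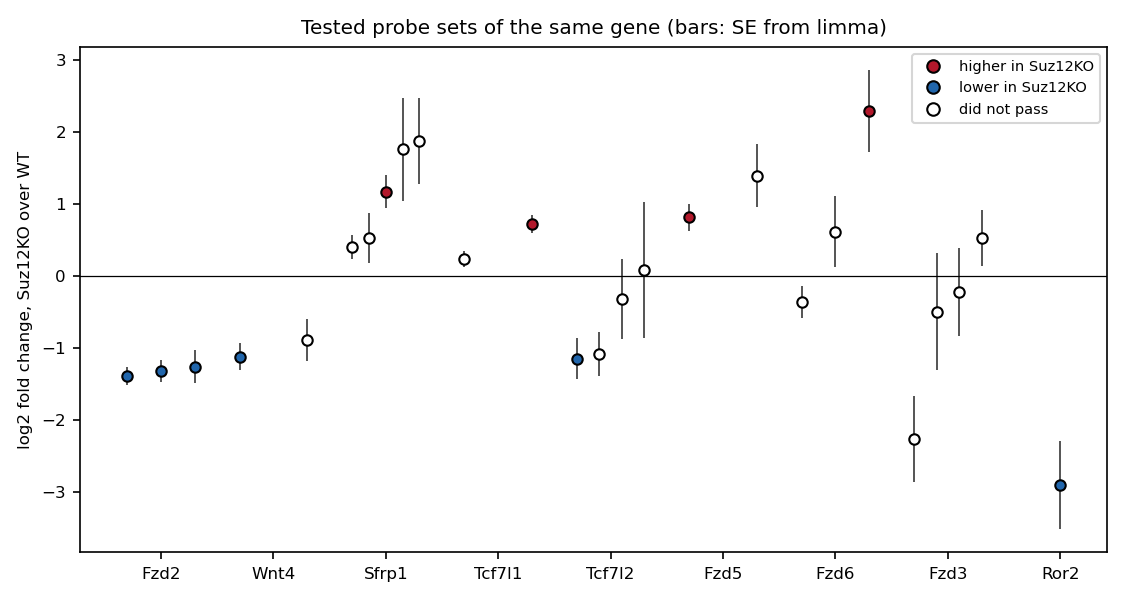
Log2 fold change (Suz12KO over WT) with SE bars for every tested probe set of 9 member genes, filled where the probe set passed the test. The 3 Fzd2 probe sets lie between -1.39 and -1.26, all 5 Sfrp1 probe sets lie above 0, and those of Fzd6, Fzd3 and Tcf7l2 lie on both sides of 0.

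Probe sets of 1 gene often differed. Of the 23 member genes with several tested probe sets, 12 had log2 differences of both signs and 11 had a single sign. Fzd2, Fzd5, Sfrp1, Tcf7l1 and Wnt4 were among those with a single sign. Fzd6 and Tcf7l2, with calls, were among those with both. The 26 member probe sets that were not tested read between 7.41 and 318, and 4 of them exceeded background on at least 1 array.

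Other genes of the pathway were read from lists by role. Of 13 tested probe sets for ligand export and agonists, 1 rose and 3 fell. The 3 that fell were those of Wls, the carrier that brings Wnts to the cell surface. The Wls probe set with the largest fall read 401 and 312 in Suz12KO and 1506 and 1900 in WT (-2.21, SE 0.20, limma adjusted p = 2.88e-04). Porcn, the enzyme that attaches the lipid to Wnts, rose, at 1127 and 895 in Suz12KO and 568 and 388 in WT (1.07, adjusted p = 0.0263). The Porcn call ended when Suz12KO replicate 1 (adjusted p = 0.122) or WT replicate 2 (0.0863) was left out, and that of 1 Wls probe set without WT replicate 1 (adjusted p = 0.0545).

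Among other extracellular inhibitors, 0 of 19 rose and 3 fell, all of them Igfbp4, an IGF-binding protein also reported to bind Wnt receptors (-0.92 to -0.96). One of these Igfbp4 calls was lost without WT replicate 1 (adjusted p = 0.0588). None of 61 probe sets for cytoplasmic transducers and beta-catenin turnover passed the limma test, while 12 of them had an unadjusted p under 0.05. The brightest of these were Tnks2, a poly-ADP-ribosylase that destabilises Axin (-0.20, adjusted p = 0.201), and Csnk1a1, the kinase that primes beta-catenin (-0.22, adjusted p = 0.0909). Among planar polarity genes and alternative receptors, 3 of 28 fell and 0 rose. These were the receptor Ryk on 2 probe sets (-0.94 and -0.90) and the glypican Gpc4 (-1.07, SE 0.12), which read 1286 and 1117 in Suz12KO and 2501 and 2570 in WT. A brighter Gpc4 probe set differed by -0.55 without overlap but did not pass (limma adjusted p = 0.0954). The dimmer of the 2 called Ryk probe sets did not pass once Suz12KO replicate 1 (adjusted p = 0.0942) or WT replicate 1 (0.138) was left out.

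Of 35 nuclear cofactor probe sets, 2 rose and 2 fell. The kinase Hipk2 (1.88) and the corepressor Tle3 (0.59) rose, each on 1 probe set, and the Ldb1 partner Ssbp3 fell on 2 (-0.56 and -0.55). No other tested Hipk2 probe set passed. The brightest of them gave 0.40 (limma adjusted p = 0.355), and 1 dim one differed the other way (-0.16). Tle3 lost its call without any 1 array (limma adjusted p between 0.0627 and 0.0860), and Hipk2 without Suz12KO replicate 1 (1.52, adjusted p = 0.0942). Both Ssbp3 probe sets lost theirs without WT replicate 2 (adjusted p 0.0830 and 0.214), and the one with the larger error also without either Suz12KO array (adjusted p 0.0749 and 0.0857). Other known Wnt target genes had 0 rises and 3 falls among 25 probe sets, in Ccnd1, a G1 cyclin (-0.46 and -0.44), and Myc (-0.88). Myc read 1152 and 1615 in Suz12KO and 2512 and 2535 in WT. Notum, a secreted enzyme that inactivates Wnts and a Wnt target, is named after its values were seen. It read 952 and 924 in Suz12KO and 487 and 614 in WT (0.76, adjusted p = 0.0503) and did not pass, but did after quantile normalization (adjusted p = 0.0455).

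Among genes reported as repressed by Tcf7l1 in mouse ES cells, 8 of 10 probe sets rose and 0 fell. The largest rises were those of Nanog (2.04), Nr0b1 (1.93) and Esrrb (1.77), all pluripotency regulators. The list holds ES cell markers, and these were already known to be higher in these data, so its count is not independent evidence. One of 3 called Esrrb probe sets did not pass once Suz12KO replicate 1 was left out (adjusted p = 0.112). Against the 6.81% called over all probe sets, the called share was 30.8% for ligand export and agonists, 15.8% for extracellular inhibitors and 11.4% for nuclear cofactors. It was 10.7% for planar polarity genes, 12.0% for targets and 80.0% for genes reported as repressed by Tcf7l1. Several probe sets of 1 gene stand in these shares.

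**Figure D4:**
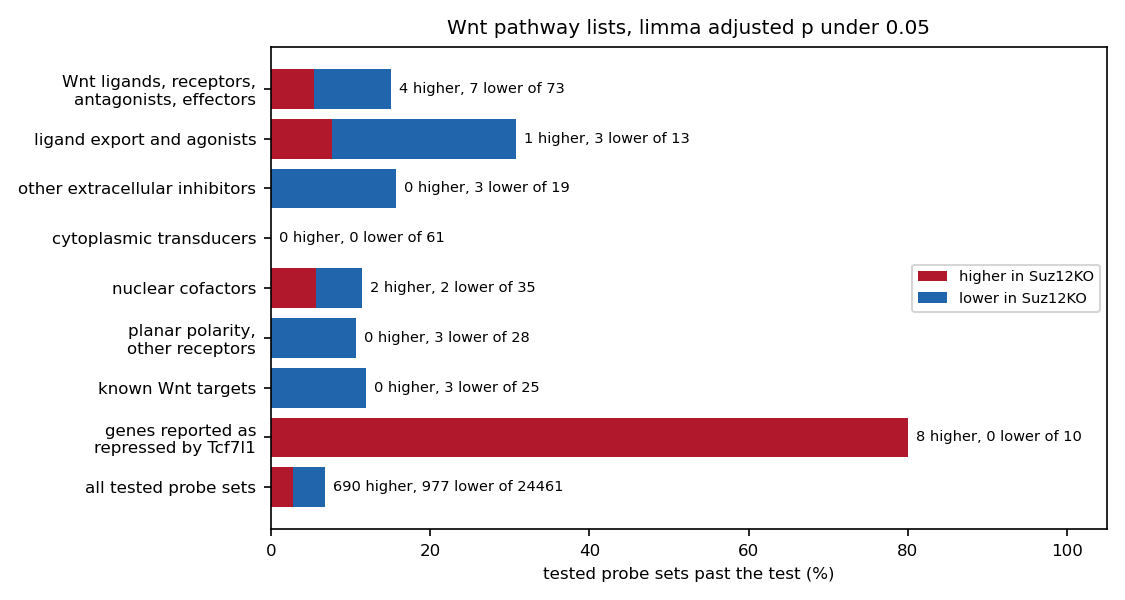
Share of tested probe sets (%) past the limma test, higher and lower in Suz12KO, for the members, 7 lists of other pathway genes and all tested probe sets. Cytoplasmic transducers had 0 of 61, and genes reported as repressed by Tcf7l1 had 8 of 10, all higher.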

How the data were processed

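Per the labels, biotin-labelled targets of pooled RNA were hybridised to Affymetrix arrays. The deposited values are probe set intensity on a linear scale. After trimming 2% of values at each end, the mean was 500.003 in every array, so the deposited intensity had been scaled per array. No source used here names the summarisation software. Such scaling hides a change shared by most genes. Array medians differed by 0.219 on the log2 scale, under the limit of 0.5, so no further normalization was applied.

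Gene symbols were those of the platform annotation. Probe sets with 1 symbol (34945 of 45101) were kept, 932 with several, 9160 with none and 64 controls were left out. Values were transformed as log2(signal + 16), and the 24461 probe sets at or above the 30th percentile of mean level were tested with limma 3.58.1 in R 4.3.3 (lmFit and eBayes, trend set to true, two-sided p, Benjamini-Hochberg adjustment over all of them, calls at an adjusted p under 0.05). Intervals are limma's 95% intervals, unadjusted. Background was the highest of 27 unused bacterial spike probe sets per array. For a genotype with neither array above it, the change is given as at least N-fold against the higher of that spike and the probe set's own signal. This figure uses mean levels and takes no account of the spread between arrays. The procedure was also run on simulated data, drawn as independent arrays from its own fitted variance model. That run cannot show if the variance trend holds, or what happens if the arrays are technical repeats. Promoter windows are RefSeq sequences and were available for 33 of the 49 genes. Figures used matplotlib 3.10.9 in Python 3.11.15.

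Text names every member, with values per array for called probe sets and, for most genes, for the brightest probe set above background. Wnt1, Wnt2b, Wnt8b, Wnt9b and Fzd9, each above background on a single array, are given without values per array. Per list of other genes it names up to 3 rises and 3 falls, or the 2 brightest where none passed. The rule for members uses symbols only, but members and lists were chosen with earlier results of these data known. Alternatives were another pseudocount, normalization, filter, choice of probe set, variance model, a replicate block and leaving out each array. With an array left out, 1 genotype has a lone array, which is assumed to vary like the arrays of the other genotype.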

Additional observations from a re-analysis of the deposited data

How the results depend on the processing

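The precision of every value is limited by 2 arrays per genotype. No called member probe set changed direction in any alternative run in which it was tested. A called probe set that is not the brightest of its gene drops out when only the brightest is used. For Fzd6 the brightest probe set differed the other way from the called one (-0.36). With the main settings 690 probe sets were higher and 977 lower in Suz12KO, among them 4 and 7 members. Higher probe sets numbered 414 after centring on the array median, 305 after averaging the probe sets of each gene, 452 without suffixed probe sets, and between 419 and 624 with an array left out. Lower ones numbered 306 with averaging, 626 without suffixed probe sets, and between 615 and 1007 with an array left out. Members higher numbered 2 after centring, 2 without a filter on dim probe sets, 1 with the brightest probe set per gene, 1 with averaging, and between 0 and 2 with an array left out. Members lower numbered 3 with averaging and between 2 and 9 with an array left out. Without a variance trend all 4 counts were 0. Averaging, the brightest probe set and leaving out suffixed probe sets test fewer features by construction, and testing without a filter tests more. Otherwise the cause was not tested. With the replicate number as a replicate block, 1205 probe sets were higher and 1531 lower, with 5 and 10 members. The labels do not pair the arrays, and same-numbered arrays showed a correlation of 0.00809 in their deviations.

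Among member probe sets without a call, the sign turned in the following cases. They include uncalled probe sets of Fzd6 and Tcf7l2, genes with a call on another probe set. The average of a gene was set against its brightest probe set. For Fzd6 that average had the sign of the called probe set. After averaging probe sets of a gene the log2 difference was 0.15 for Axin1, -0.39 for Dkk3, 0.20 for Fzd10os, -0.26 for Fzd3, -0.13 for Fzd4, 0.85 for Fzd6, 0.43 for Fzd7, -0.0746 for Sfrp5 and -0.28 for Wnt7b. Quantile normalization gave 0.0040 for Axin1, -0.0100 for Ror1, -0.021 for Sfrp5 and -0.028 for Tcf7l2. Centring gave -0.035 for Sfrp5 and -0.021 for Tcf7l2, and a pseudocount of 1 gave -0.020 for Tcf7l2. With 1 array left out, values ranged from -1.09 to 0.10 for Axin2, -0.0058 to 0.67 for Dkk3, -0.66 to 0.045 and -0.057 to 0.79 for Fzd10os, and -0.85 to 0.40 and -1.24 to 0.24 for Fzd3. They ranged from -1.59 to 0.33 for Fzd4, -0.74 to 0.69 for Fzd9, -0.14 to 0.0042 for Lef1, -0.27 to 0.54 for Ror1, -1.27 to 0.86 and -1.19 to 1.33 for Sfrp5, and -0.050 to 1.48 for Tcf7l2. For the ligands they ranged from -0.54 to 0.15 for Wnt1, -0.35 to 0.72 for Wnt6, -0.29 to 0.84 for Wnt7a, -0.39 to 0.24 for Wnt9a and -0.034 to 1.46 for Wnt9b.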
